A study of Mus musculus with 18 samples.

Results

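The 9 genes described here transduce interferon signals or restrain them: the kinases Jak1, Jak2 and Tyk2, the transcription factors Stat2 and Irf9, the receptor chain Ifngr1, and the feedback inhibitors Socs1, Socs3 and Usp18. They were chosen by gene name, and all 9 were found among the 55385 genes of the deposited tables and kept among the 15208 genes tested. Their RNA was measured in the livers of 18 mice, 6 in each of 3 groups with 3 males and 3 females per group, aged 17.1 to 18 weeks, with no treatment listed. Dp16-2xIFNRs mice carry the Dp16 duplication with the interferon receptor dosage normalized, and the sources used here do not give the allele by which this was done. Dp16 mice, a model of trisomy 21, carry an extra copy of the part of mouse chromosome 16 from Lipi to Zbtb21 (chr16:75540514-97962622, GRCm38). Wild-type mice are C57BL/6J. Each library is labelled as 1 sample of liver. None of the 9 genes lies on the segment: Socs1 is on chromosome 16 outside it, and the others are on other chromosomes. The segment does hold Ifnar1, Ifnar2, Il10rb and Ifngr2, the receptor chains that stand upstream of the 9 genes.

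Interferons bind paired receptor chains on the cell surface, and each chain holds a Janus kinase on its inner side. Type I interferons use TYK2 and JAK1, and interferon gamma uses JAK1 and JAK2. The activated kinases phosphorylate STAT proteins, and a complex that holds STAT2 and IRF9 binds interferon-stimulated response elements, while pairs of STAT proteins bind gamma-activated sites. SOCS1 and SOCS3 block the kinases, and USP18 both removes ISG15 from proteins and keeps JAK1 away from IFNAR2. In liver the same kinases serve growth hormone, prolactin, leptin and interleukin 6, and SOCS3 is a main brake on interleukin 6 signalling through STAT3.

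Promoters were searched for both elements because STAT2 and IRF9 act through the first and STAT3 through sites of the second kind. RefSeq promoter windows (GRCm38.p6) were matched for 8 of the 9 genes; the window of Usp18 was not used here. The interferon-stimulated response element core was searched as GAAA, any 2 bases and GAAA, and the gamma-activated site as TTC, any 3 bases and GAA, each on both strands, and neither overlapped the other in a member. Of 32851 windows of 300 bases, 250 before and 50 after the start, 3.44% held the first motif and 8.30% the second. Among the members the first was found for Stat2 and Socs1 and the second for Socs3. The 250 bases before the RefSeq start of these 3 genes are given 5′ to 3′ on the gene's strand, with motif matches in capitals.
Stat2 (chr10:128270248-128270497, plus strand): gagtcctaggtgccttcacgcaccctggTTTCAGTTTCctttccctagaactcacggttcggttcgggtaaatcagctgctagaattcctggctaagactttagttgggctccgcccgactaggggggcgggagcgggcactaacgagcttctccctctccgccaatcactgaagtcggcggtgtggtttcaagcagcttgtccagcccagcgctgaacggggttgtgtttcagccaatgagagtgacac
Socs1 (chr16:10785537-10785786, minus strand): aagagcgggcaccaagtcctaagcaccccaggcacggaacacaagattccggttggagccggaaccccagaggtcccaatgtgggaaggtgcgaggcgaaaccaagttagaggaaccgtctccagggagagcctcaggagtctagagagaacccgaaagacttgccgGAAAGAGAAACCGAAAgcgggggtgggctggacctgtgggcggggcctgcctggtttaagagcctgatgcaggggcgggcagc
Socs3 (chr11:117969367-117969616, minus strand): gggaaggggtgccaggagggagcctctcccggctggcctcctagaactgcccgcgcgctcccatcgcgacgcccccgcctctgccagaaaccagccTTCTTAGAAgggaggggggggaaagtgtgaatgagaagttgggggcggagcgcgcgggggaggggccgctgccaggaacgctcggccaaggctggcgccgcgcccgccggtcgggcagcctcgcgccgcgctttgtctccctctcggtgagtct
The Stat2 match lies 222 to 213 bases before the start and reads on the opposite strand. The matches of Socs1 overlap each other and together span 83 to 68 bases before the start. The Socs3 match lies 154 to 146 bases before it. These distances are to the RefSeq start. For Socs3 the whole window lies inside the gene as bounded by the GENCODE coordinates given below. A match describes letters in the window and does not show that a factor binds there.

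Total counts ran from 38236222 to 59923315 per library. Levels of 1 gene across libraries are given as CPM, the counts of a gene scaled to the TMM-adjusted total of the tested genes, and levels of different genes are compared only in the deposited RPKM, which divide by gene length. Hepatocyte markers made up a summed 80200 to 131000 CPM in Dp16-2xIFNRs livers, 75800 to 117000 CPM in Dp16 livers and 82600 to 122000 CPM in wild-type livers. The libraries differed in the count-weighted mean length of the genes they sampled, which was 2.37 ± 0.0831 kb in Dp16-2xIFNRs, 2.64 ± 0.356 kb in Dp16 and 2.52 ± 0.196 kb in wild-type (SD, n = 6 each). Its lowest and highest values, 2.12 and 3.13 kb, were in Dp16 libraries 4 and 5, which also had the lowest and highest scaling factors, 0.803 and 1.34.

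None of the 9 genes passed the test in any comparison of genotypes. With the edgeR quasi-likelihood test and Benjamini-Hochberg adjustment over all genes, 0 members passed an adjusted p of 0.05 in Dp16-2xIFNRs against Dp16, where 0% of all tested genes passed. The same count of 0 was found in Dp16-2xIFNRs against wild-type, where 0.0986% of all genes passed, and in Dp16 against wild-type, where 0.0395% passed. DESeq2 and limma-voom also called 0 members in each of these. At an unadjusted p under 0.05, the members counted 0 in Dp16-2xIFNRs against Dp16 (9.32% of all genes, 7.11% lower), 2 in Dp16-2xIFNRs against wild-type (8.66% of all genes), both of them lower (5.23%), and 0 in Dp16 against wild-type (4.87%, 2.35% lower). For all 9 members the libraries of the groups overlapped in every comparison, whereas 0.158% of all genes did not overlap in Dp16-2xIFNRs against Dp16, 0.855% in Dp16-2xIFNRs against wild-type and 0.217% in Dp16 against wild-type. Over the 9 members the log2 fold changes had a median of −0.24 in Dp16-2xIFNRs against Dp16, beside −0.022 over all tested genes. It was −0.18 beside −0.025 in Dp16-2xIFNRs against wild-type, and 0.087 beside 0.01 in Dp16 against wild-type. The 2 comparisons with wild-type share its libraries, and both comparisons with Dp16-2xIFNRs share that group.

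**Figure D1:**
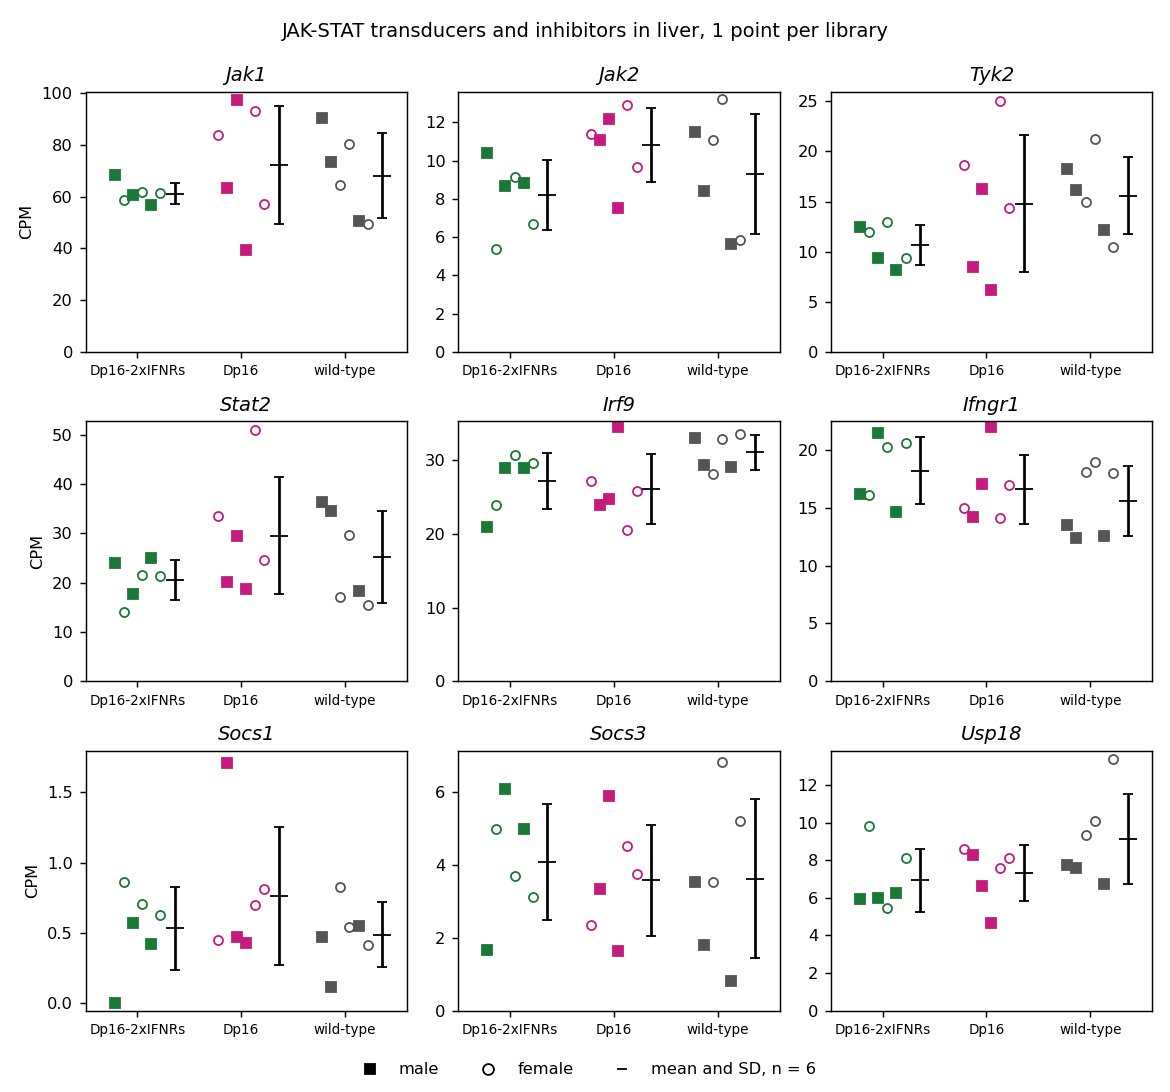
Level of each gene in CPM (vertical axis, from 0) in every library, in the order Dp16-2xIFNRs, Dp16 and wild-type, with squares for males, open circles for females and bars for mean and SD (n = 6). The groups overlap in all 9 panels, and Socs1 is the lowest of the 9, with 1 Dp16-2xIFNRs library at 0.

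Per length, Jak1 was the highest of the 9 in each group, at 12.0 ± 1.04 RPKM in Dp16-2xIFNRs, 16.1 ± 6.92 RPKM in Dp16 and 14.1 ± 4.21 RPKM in wild-type livers (SD, n = 6 each). The order of mean RPKM below it was the same in the 3 groups: Irf9, Ifngr1, Stat2, Usp18, Tyk2, Jak2, Socs3 and Socs1. Socs1 was last by a wide margin, with a mean of 0.176 RPKM in Dp16-2xIFNRs, 0.273 RPKM in Dp16 and 0.169 RPKM in wild-type livers, and lay below Socs3 in 6 of 6 libraries of each group. Other neighbours could not be separated in every library. Irf9 exceeded Ifngr1 in 3 of 6 Dp16-2xIFNRs, 4 of 6 Dp16 and 6 of 6 wild-type libraries, and Jak2 exceeded Socs3 in 3, 6 and 4 of 6. Ifngr1 exceeded Stat2 in 6 of 6 Dp16-2xIFNRs libraries but in 4 of 6 Dp16 and 4 of 6 wild-type libraries.

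Jak1 (ENSMUSG00000028530.14, chr4:101152367-101265282, minus strand) encodes the kinase common to type I, II and III interferon receptors and to the interleukin 6 family. Its lowest, median and highest levels were 56.7, 60.9 and 68.4 CPM in Dp16-2xIFNRs, 39.2, 73.7 and 97.6 CPM in Dp16, and 49.3, 68.9 and 90.6 CPM in wild-type livers. The Dp16-2xIFNRs libraries stayed in a narrow band inside the spread of both other groups. All 6 lay below the Dp16 mean, with a log2 fold change of −0.24 ± 0.203 (SE) and an adjusted p of 0.658. Against wild-type it was −0.16 ± 0.203 (adjusted p = 0.821), and Dp16 against wild-type gave 0.087 ± 0.203 (adjusted p = 0.999).

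Tyk2 (ENSMUSG00000032175.11, chr9:21104068-21131243, minus strand), the kinase on IFNAR1, showed the widest gap between Dp16-2xIFNRs and wild-type livers among the kinases. Its lowest, median and highest levels were 8.21, 10.7 and 13.0 CPM in Dp16-2xIFNRs, 6.16, 15.3 and 25.0 CPM in Dp16, and 10.5, 15.6 and 21.2 CPM in wild-type livers. Every Dp16-2xIFNRs library lay below the wild-type mean, although 3 of the 6 fell within the wild-type range. The fold was 0.684, with a 95% interval of 0.473 to 0.988 (log2 fold change −0.55 ± 0.254 SE), an unadjusted p of 0.0438 and an adjusted p of 0.573 in edgeR. The Dp16 libraries spread most, with a coefficient of variation of 46.4%, and Dp16 against wild-type gave a log2 fold change of −0.12 ± 0.255 (adjusted p = 0.999). An antisense gene, 1700084C06Rik, overlaps Tyk2 over 24326 bases. It had 0 to 10 counts per library beside 203 to 2007 for Tyk2, and since no source used here gives the strand setting of the counting, reads of the 2 genes cannot be told apart.

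Jak2 (ENSMUSG00000024789.13, chr19:29251828-29313080, plus strand), the kinase of IFNGR2 and of the growth hormone and prolactin receptors, averaged 8.19 ± 1.83 CPM in Dp16-2xIFNRs, 10.8 ± 1.94 CPM in Dp16 and 9.29 ± 3.14 CPM in wild-type livers (SD, n = 6 each). All 6 Dp16-2xIFNRs libraries were below the Dp16 mean, but from 5.4 to 10.4 CPM they overlapped the Dp16 range of 7.53 to 12.9 CPM. The log2 fold change was −0.40 ± 0.229 (SE; adjusted p = 0.576) in Dp16-2xIFNRs against Dp16 and 0.22 ± 0.228 (adjusted p = 0.999) in Dp16 against wild-type.

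Stat2 (ENSMUSG00000040033.16, chr10:128270559-128292849, plus strand) encodes the STAT that is used mainly by type I and type III interferons. Its lowest, median and highest levels were 14.0, 21.5 and 25.0 CPM in Dp16-2xIFNRs, 18.8, 26.9 and 50.9 CPM in Dp16, and 15.5, 24.0 and 36.3 CPM in wild-type livers. Dp16 library 5 alone held the value of 50.9 CPM, and the next highest Dp16 library had 33.5 CPM. Dp16-2xIFNRs libraries were below the Dp16 mean in 6 of 6 cases, with a fold of 0.695 and a 95% interval of 0.472 to 1.02 (log2 fold change −0.53 ± 0.266 SE, unadjusted p = 0.063, adjusted p = 0.542). Without Dp16 libraries 4 and 5 the log2 fold change was −0.40. Dp16 against wild-type gave 0.23 ± 0.267 (adjusted p = 0.999), and 0.12 without these libraries.

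Irf9 (ENSMUSG00000002325.15, chr14:55603571-55610030, plus strand), the DNA-binding partner of STAT2, had its highest median in wild-type livers. In Dp16-2xIFNRs, the lowest, median and highest levels were 21.0, 28.9 and 30.7 CPM, beside 20.6, 25.3 and 34.6 CPM in Dp16, and 28.2, 31.2 and 33.6 CPM in wild-type livers. Wild-type libraries were the most alike, with a coefficient of variation of 7.69%, against 14.2% in Dp16-2xIFNRs and 18.0% in Dp16. The log2 fold change was −0.25 ± 0.14 (SE) in Dp16 against wild-type, with an unadjusted p of 0.0886 and an adjusted p of 0.999, and 5 of 6 Dp16 libraries were below the wild-type mean. In Dp16-2xIFNRs against wild-type it was −0.19 ± 0.14 (adjusted p = 0.683), with 6 of 6 below. Rnf31 overlaps Irf9 by 123 bases on the same strand, and no source used here says how the counting treated reads shared by both genes.

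Ifngr1 (ENSMUSG00000020009.13, chr10:19591949-19610229, plus strand) encodes the ligand-binding chain of the interferon gamma receptor and lies outside the duplicated segment. It averaged 18.2 ± 2.91 CPM in Dp16-2xIFNRs, 16.6 ± 2.98 CPM in Dp16 and 15.6 ± 3.06 CPM in wild-type livers (SD, n = 6 each), and no difference passed the test (adjusted p = 0.667 to 0.999). Its partner chain Ifngr2, on the segment, averaged 28.0 ± 6.98 CPM, 37.6 ± 10.2 CPM and 29.5 ± 8.16 CPM in these groups. Since both chains form 1 receptor and a ratio within a library is free of scaling between libraries, the log2 ratio of Ifngr2 to Ifngr1 RPKM was compared. Its lowest, median and highest values were −0.72, −0.35 and 0.53 in Dp16-2xIFNRs, −0.19, 0.35 and 0.93 in Dp16, and −0.12, 0.079 and 0.34 in wild-type livers. The Dp16-2xIFNRs libraries reached lowest and the Dp16 libraries highest, with overlap between all groups. Two-sided exact permutation tests over every arrangement of 6 against 6 libraries, adjusted over the 3 comparisons, gave a difference of −0.55 (p = 0.0714, adjusted p = 0.214) in Dp16-2xIFNRs against Dp16. The difference was −0.29 (exact permutation p = 0.19, adjusted p = 0.242) in Dp16-2xIFNRs against wild-type and 0.26 (exact permutation p = 0.242, adjusted p = 0.242) in Dp16 against wild-type. In each of the 2 comparisons with Dp16-2xIFNRs, 1 of 18 runs that left out 1 library passed. It was the run without Dp16-2xIFNRs library 2, whose ratio was the 0.53 above. The differences were then −0.70 against Dp16 and −0.44 against wild-type, each with an adjusted p of 0.0455 in the exact permutation test.

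**Figure D2:**
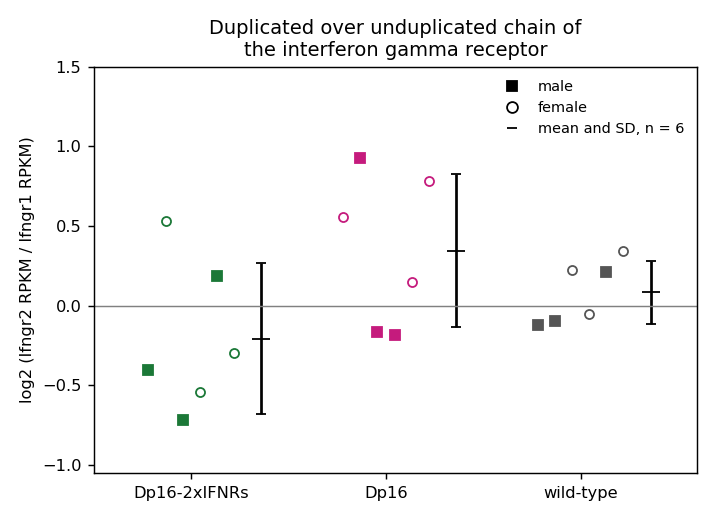
Log2 ratio of Ifngr2 to Ifngr1 RPKM (vertical axis) in each library of the 3 groups, with squares for males, open circles for females and bars for mean and SD (n = 6). Dp16-2xIFNRs livers average −0.21, Dp16 livers 0.34 and wild-type livers 0.084, and the Dp16-2xIFNRs library at 0.53 stands among the Dp16 values.

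Socs1 (ENSMUSG00000038037.5, chr16:10782240-10785536, minus strand), an inhibitor that binds the JAKs directly, was near the limit of detection. It summed to 138 counts over 6 Dp16-2xIFNRs libraries, 234 over 6 Dp16 libraries and 141 over 6 wild-type libraries, from 0 to 37, 14 to 75 and 6 to 43 counts per library. The library at 0, Dp16-2xIFNRs library 1, allows up to 3 counts, or 0.0676 CPM, by counting error alone. The Dp16 sum was led by Dp16 library 2, with 75 counts and 1.71 CPM, while the median Dp16 library had 0.583 CPM, beside medians of 0.597 CPM in Dp16-2xIFNRs and 0.508 CPM in wild-type livers. The log2 fold change of 0.72 ± 0.671 (SE) in Dp16 against wild-type had a 95% interval of −0.69 to 2.12 and an adjusted p of 0.999. The interval spans folds of 0.622 to 4.36, so neither a lower nor a higher level is shown.

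Socs3 (ENSMUSG00000053113.3, chr11:117966079-117970047, minus strand), induced through STAT3, varied more between animals than between genotypes. Lowest, median and highest levels were 1.65, 4.33 and 6.09 CPM in Dp16-2xIFNRs, 1.64, 3.54 and 5.89 CPM in Dp16, and 0.819, 3.54 and 6.83 CPM in wild-type livers. The coefficients of variation were 39.0%, 42.5% and 60.5% in these groups. Each group held both low and high libraries, and the log2 fold changes were 0.19 ± 0.408 (SE) in Dp16-2xIFNRs against Dp16, 0.26 ± 0.416 in Dp16-2xIFNRs against wild-type and 0.071 ± 0.415 in Dp16 against wild-type, with adjusted p from 0.851 to 0.999.

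Usp18 (ENSMUSG00000030107.10, chr6:121245906-121270917, plus strand), itself an interferon-stimulated gene and the inhibitor that acts at IFNAR2, had lower means in both duplication groups than in wild-type livers, without passing the test. The lowest, median and highest libraries had 5.49, 6.14 and 9.82 CPM in Dp16-2xIFNRs, 4.67, 7.87 and 8.61 CPM in Dp16, and 6.73, 8.53 and 13.4 CPM in wild-type livers. All 6 Dp16 libraries and 5 of 6 Dp16-2xIFNRs libraries were below the wild-type mean of 9.14 CPM. In Dp16-2xIFNRs against wild-type the fold was 0.768, with a 95% interval of 0.596 to 0.99, an unadjusted p of 0.0421 and an adjusted p of 0.567. The fold was 0.813 in Dp16 against wild-type, with an interval of 0.631 to 1.05 and an adjusted p of 0.999, and 0.945 in Dp16-2xIFNRs against Dp16 (adjusted p = 0.864). An overlapping noncoding gene on the other strand, Gm44148, had 0 to 68 counts per library beside 154 to 647 for Usp18. In whole liver, fewer cells of a type that carries a transcript and less RNA per cell cannot be told apart for any of the 9 genes.

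**Figure D3:**
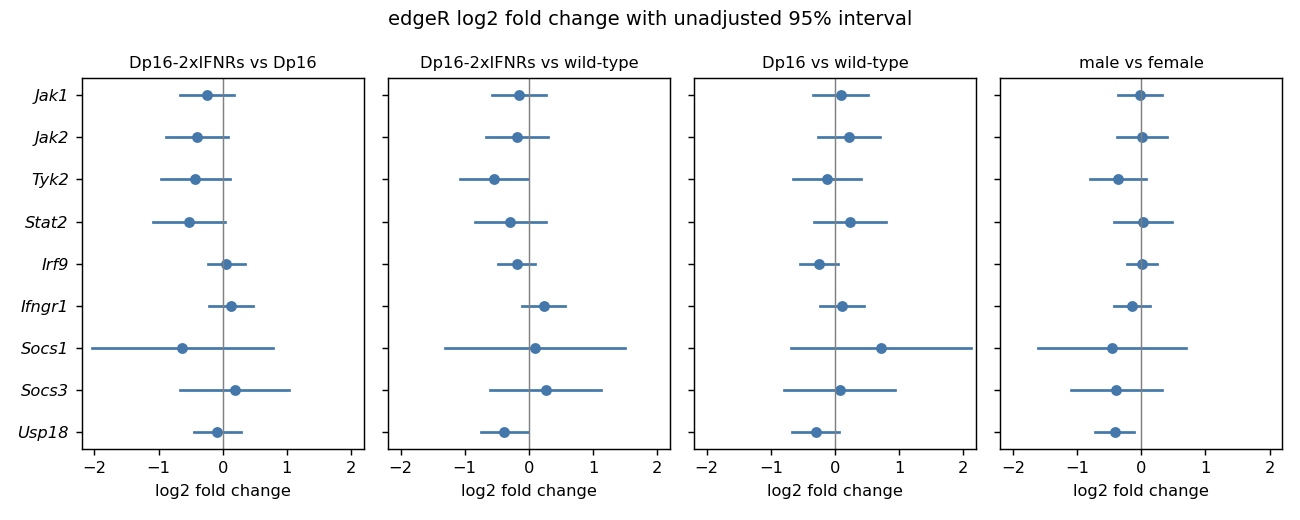
Log2 fold change (horizontal axis) of each gene with its unadjusted 95% interval, for Dp16-2xIFNRs against Dp16, Dp16-2xIFNRs against wild-type, Dp16 against wild-type, and males against females. Intervals exclude 0 only for Tyk2 and Usp18 in Dp16-2xIFNRs against wild-type and for Usp18 in males against females, none of which passed after adjustment, and Socs1 has the widest intervals.

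Between the sexes, Usp18 was the member with the smallest p. Males had 5.95, 6.00 and 6.27 CPM and females 5.49, 8.14 and 9.82 CPM among Dp16-2xIFNRs mice. Dp16 males had 4.67, 6.64 and 8.31 CPM and Dp16 females 7.60, 8.14 and 8.61 CPM. Wild-type males had 6.73, 7.57 and 7.73 CPM and wild-type females 9.34, 10.1 and 13.4 CPM. The sexes overlapped in both duplication groups but not in wild-type, where 15.2% of all genes separated 3 males and 3 females. Over all groups males averaged 6.65 ± 1.10 CPM and females 8.96 ± 2.15 CPM (SD, n = 9 each). The log2 fold change was −0.42 ± 0.143 (SE), all 9 males were below the female mean, and the edgeR adjusted p was 0.0963 (unadjusted 0.00881). In edgeR 0 of 9 members passed in males against females, where 6.56% of all tested genes did. Usp18 alone had an unadjusted p under 0.05, as a lower value, where 18.8% of all genes did and 9.44% as a lower one. The sexes overlapped for all 9 members, and did not for 1.87% of all genes. DESeq2 called Usp18, with an adjusted p of 0.0491, and so did edgeR without Dp16 library 2 (0.0491) or without Dp16-2xIFNRs library 4 (0.0487).

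A genotype difference that is not the same in males and females was tested with an interaction term, and 0 members passed, as did 0% of all genes in each of 3 comparisons. For Dp16-2xIFNRs 0 members had an unadjusted p under 0.05 against Dp16 (3.33% of all genes) or against wild-type (2.24%). For Dp16 against wild-type, 2 members had an unadjusted p under 0.05, where 7.88% of all genes did. Stat2 had 18.8, 20.1 and 29.4 CPM in Dp16 males against 18.3, 34.6 and 36.3 CPM in wild-type males, and 24.5, 33.5 and 50.9 CPM in Dp16 females against 15.5, 17.0 and 29.7 CPM in wild-type females. The male minus female log2 fold change was −1.19 ± 0.47 (SE, unadjusted p = 0.0211, adjusted p = 0.582 in edgeR). Ifngr1 went the other way, with 14.2, 17.1 and 22.0 CPM in Dp16 males against 12.4, 12.6 and 13.5 CPM in wild-type males, and 14.1, 15.0 and 17.0 CPM in Dp16 females against 18.0, 18.1 and 19.0 CPM in wild-type females. With 3 libraries against 3, Dp16 and wild-type did not overlap in either sex for Ifngr1, which held for 1.17% of all genes. The male minus female log2 fold change was 0.73 ± 0.292 (SE, unadjusted p = 0.0233, adjusted p = 0.582 in edgeR).

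The 3 kinases and Stat2 varied together from library to library, apart from genotype and sex. Log2 CPM was centred within genotype and sex, and correlations over the 18 libraries were tested by exact permutation within these cells (46656 arrangements), with adjustment over 36 pairs. Jak1 and Tyk2 had a Pearson r of 0.919 and a Spearman rho of 0.911 (permutation p = 0.000193 and 0.00015, adjusted p = 0.00347 and 0.0027). Jak1 and Jak2 had 0.813 and 0.880 (permutation p = 4.29e-05 for both, adjusted p = 0.00154 for both), and Jak1 and Stat2 had 0.773 and 0.839 (permutation p = 0.000622 and 0.000429, adjusted p = 0.00746 and 0.00514). The pairs of Jak2 with Tyk2 (r = 0.771, rho = 0.831), Jak2 with Stat2 (r = 0.775, rho = 0.818) and Tyk2 with Stat2 (r = 0.715, rho = 0.761) passed as well, with adjusted permutation p of 0.012, 0.0305 and 0.0305 for r and 0.00521, 0.0167 and 0.0238 for rho. With the 2 libraries farthest from the median left out, r of these 6 pairs was 0.663 to 0.874, and Jak2 with Stat2 (adjusted permutation p = 0.215) and Tyk2 with Stat2 (0.198) no longer passed. Not one of the other 30 pairs passed. The share of all gene pairs that would pass was not computed, so these pairs are not shown to differ from pairs of other genes. Irf9 and Ifngr1 had an r of 0.668 and a rho of 0.598 (permutation p = 0.0545 and 0.0693, adjusted p = 0.28 and 0.356), and Irf9 with Stat2, its partner, had −0.095 and −0.092 (adjusted permutation p = 0.865 and 0.915).

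The same 4 genes moved with the mean gene length of the library. Centred in the same way and tested by exact permutation with adjustment over 9 members, its r was 0.974 with Jak1 (rho = 0.932, permutation p = 4.29e-05 for both, adjusted p = 0.000386), 0.938 with Tyk2 (rho = 0.884, adjusted p = 0.000836 and 0.00296), 0.811 with Stat2 (rho = 0.853, adjusted p = 0.00342 and 0.00296) and 0.789 with Jak2 (rho = 0.787, adjusted p = 0.000836 and 0.00453). Without the 2 libraries farthest from the median, these r were 0.985, 0.934, 0.785 and 0.794. These 4 are the longest of the 9 transcripts, at 4397 to 5562 bases, and the other 5, at 1771 to 3102 bases, had r from −0.44 to 0.524 with no adjusted permutation p under 0.133. Mean gene length was computed from these same counts, so by construction it is high where long genes hold more of them. The share of other long genes that move with it was not computed. With mean gene length removed, 0 of 36 pairs passed, and the 6 pairs above had r from −0.23 to 0.376. With it as a term in edgeR, the log2 fold change in Dp16-2xIFNRs against Dp16 was 0.23 for Jak1, 0.19 for Tyk2, 0.029 for Stat2 and −0.075 for Jak2, so that of these 4 only Jak2 kept a negative value. In Dp16-2xIFNRs against wild-type, Tyk2 was then at −0.20 (adjusted p = 0.669) while Usp18 stayed at −0.39 (adjusted p = 0.493). In Dp16 against wild-type the term moved Tyk2 to −0.39 (unadjusted p = 0.00357, adjusted p = 0.181), from the −0.12 given above. In males against females the term left Usp18 at −0.42 with an adjusted p of 0.0492, and Jak1, 0.22 higher in males, also passed at 0.0473.

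**Figure D4:**
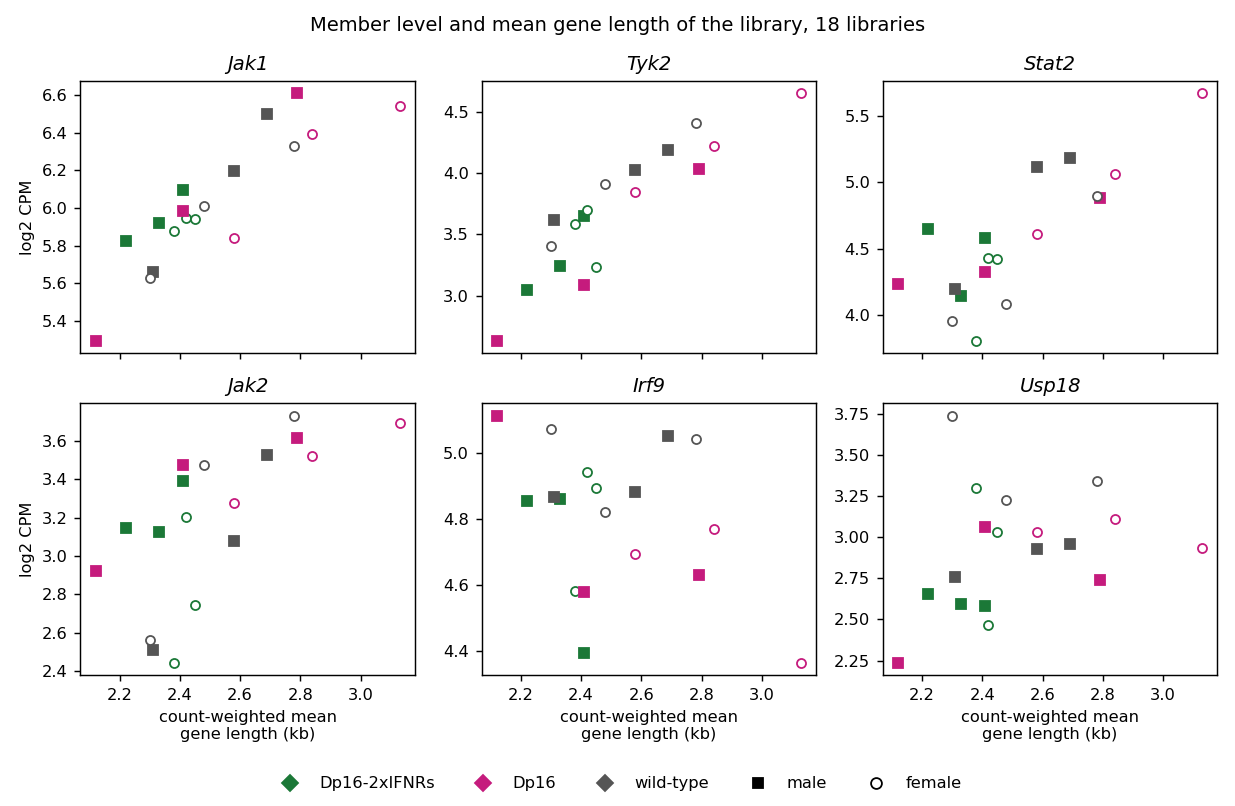
Log2 CPM of 6 genes (vertical axis) against the count-weighted mean gene length of the library in kb (horizontal axis), 1 point per library, coloured by group, with squares for males and open circles for females. Jak1, Tyk2, Stat2 and Jak2 climb with mean gene length, with Dp16 libraries 4 and 5 at 2.12 and 3.13 kb at the ends, while Irf9 and Usp18 do not.

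The number inside the sample description begins with one set of digits in 11 libraries and with another in 7, and the sources used here do not say what it marks. Of 12 different numbers, 5 stand on more than 1 library, each time of more than 1 genotype but of the same sex, and cover 11 of the 18 libraries. With the shared number as a random block in limma-voom, 0 members passed in any comparison. In all, 75 genes passed in Dp16-2xIFNRs against wild-type, beside 19 in limma-voom without the shared number. The edgeR, DESeq2 and permutation tests above, those between the sexes included, did not take it into account. Without centring, r between mean gene length and Jak1 was 0.920 in the 11 and 0.943 in the 7, and Tyk2, Stat2 and Jak2 were also positive in both, from 0.583 to 0.935. The pairs among these 4 genes had r of 0.415 to 0.767 in the 11 and 0.62 to 0.853 in the 7. Irf9 was not alike in both, with 0.303 in the 11 and −0.96 in the 7. The 7 include Dp16 libraries 4 and 5, which had the lowest and highest mean gene length, 2.12 and 3.13 kb. In wild-type, mean gene length was 2.48 to 2.78 kb in libraries of the 11 and 2.30 and 2.31 kb in those of the 7. In the other groups these ranges overlapped. With these first digits as a term, no member passed in any genotype comparison.

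**Figure D5:**
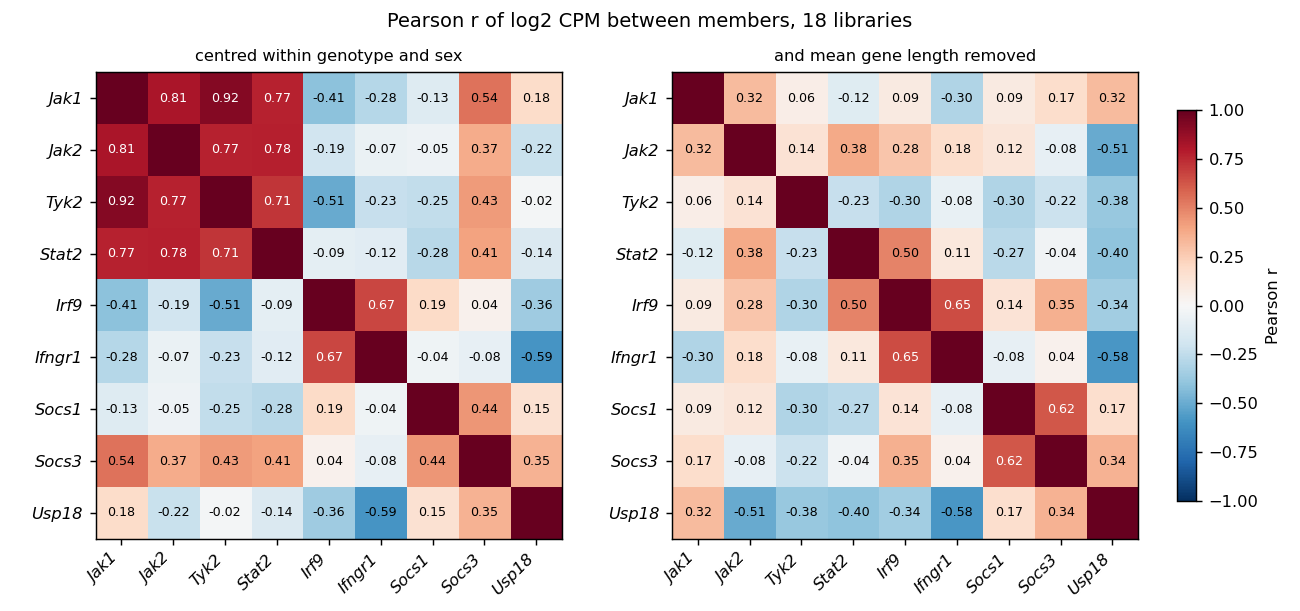
Pearson r of log2 CPM between the 9 genes over 18 libraries (colour and printed value), centred within genotype and sex at left, and with mean gene length also removed at right. The block of Jak1, Jak2, Tyk2 and Stat2 at left has r of 0.715 to 0.919, and at right none of its pairs is above 0.376.

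Over the 18 libraries without centring and among 10029 genes, the 3 genes most like Jak1 were Tfip11, Ncoa1 and Usp24, with Pearson r of 0.967 to 0.970. By the same measure Jak1 had 0.819 with Tyk2. Those most like Tyk2 were Sap130, Mgam and Ktn1 (0.949 to 0.956), those most like Stat2 were Ago3, Prpf4b and Mug-ps1 (0.933 to 0.939), and those most like Jak2 were Atp13a2, Kmt2c and Psd3 (0.86 to 0.87). These 12 genes have transcripts of 3560 to 15595 bases, and those named next for the other members overlap them, at 1663 to 7646 bases. Irf9 was most like Coq4, Mief2 and Arf2 (0.727 to 0.8), and Ifngr1 most like Pam, Lipt2 and Pdcl3 (0.822 to 0.857). Socs1 was most like Ripk4, Adamdec1 and Ttc9c (0.763 to 0.824), Socs3 most like Msto1, Klhl36 and Amigo1 (0.71 to 0.76), and Usp18 most like Pank1, Thnsl2 and Slc2a9 (0.818 to 0.864). Spearman rho was 0.736, 0.688 and 0.273 for the genes of Socs1, and 0.709, 0.715 and 0.455 for those of Socs3. For the genes of the other members it was 0.657 to 0.953. The Socs1 values include the library at 0 counts.

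Upstream of the members, few or no reads were counted for the ligands. Of 21 interferon genes, 20 had no count in any library, which allows up to 3 counts in each, and Ifng had 27 counts over 3 libraries. Of 6 other receptor chains 5 were tested, and none passed in any genotype comparison. Ifnar1, the chain that holds TYK2, averaged 23.1 ± 3.15 CPM in Dp16-2xIFNRs, 33.6 ± 7.05 CPM in Dp16 and 22.3 ± 2.32 CPM in wild-type livers. Dp16 and wild-type libraries did not overlap for it, which held for 0.217% of all genes (fold 1.5, 95% interval 1.21 to 1.85, adjusted p = 0.28 in edgeR). Ifnar2, the chain at which USP18 acts, averaged 68.2 ± 6.95, 88.1 ± 12.7 and 61.5 ± 5.06 CPM in these groups, with a fold of 1.43 in Dp16 against wild-type (95% interval 1.19 to 1.72, adjusted p = 0.246). The members downstream had folds of 0.813 to 1.65 in the same comparison. The 1.65 was that of Socs1, near the limit of detection (95% interval 0.622 to 4.36), and the next highest was 1.17 for Stat2.

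Stat3, the STAT of interleukin 6, averaged 44.6 CPM in Dp16-2xIFNRs, 71.3 CPM in Dp16 and 58.4 CPM in wild-type livers, and Stat6, the STAT of interleukin 4, 31.2, 42.6 and 42.4 CPM. Both were below the Dp16 mean in 6 of 6 Dp16-2xIFNRs libraries, with unadjusted p of 0.0166 and 0.0133 and an adjusted p of 0.532 for each in edgeR, in a comparison where 9.32% of all genes had an unadjusted p under 0.05. Of 6 other SOCS family genes none passed; Cish, an inhibitor induced by growth hormone through STAT5, averaged 12.6, 9.56 and 19.3 CPM in these groups, and Socs6 5.90, 7.53 and 6.98 CPM. Of 9 PIAS genes and phosphatases of the pathway none passed either, with Pias3 at 3.05, 3.92 and 4.69 CPM and Pias1 at 8.60, 12.0 and 11.3 CPM.

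The genes that STAT2 and IRF9 are known to switch on did not pass between genotypes either. Of 24 interferon-stimulated genes, 0 passed in edgeR in each genotype comparison, while 3 had an unadjusted p under 0.05 in Dp16-2xIFNRs against Dp16 (9.32% of all genes), 4 in Dp16-2xIFNRs against wild-type (8.66%) and 1 in Dp16 against wild-type (4.87%). Their log2 fold changes had medians of −0.083 beside −0.022 over all genes, −0.11 beside −0.025 and −0.094 beside 0.01 in these comparisons. Ifih1, a sensor of viral RNA, had 18.8, 25.8 and 28.6 CPM in Dp16-2xIFNRs, Dp16 and wild-type livers (adjusted p = 0.183 in Dp16-2xIFNRs against wild-type), and Oas2 had 0.257, 1.09 and 0.932 CPM. In males against females 2 of the 24 fell, Oasl2 (log2 fold change −0.90, adjusted p = 0.00104) and Ifi44 (−0.74, adjusted p = 0.0403), where 6.56% of all genes passed. Of the 24, 11 had an unadjusted p under 0.05, and all 11 were lower in males. Over all genes, 18.8% had such a p, and 9.44% had it with a lower value. The list's median was −0.29 beside −0.021 over all genes. Several marker lists were lower in males as well: 0 of 8 Kupffer, 0 of 8 B and plasma, 0 of 8 stellate and 1 of 8 endothelial cell markers were higher, and none of these passed. So were 2 of 9 neutrophil and monocyte, 3 of 9 T and NK, 3 of 7 dendritic and 1 of 6 cholangiocyte markers, with none passing. By contrast, 4 of 6 hepatocyte and 4 of 6 erythroid markers were higher in males, and 2 and 1 markers of these lists passed. Kupffer cell markers summed to 219 to 340 CPM in males and 233 to 512 CPM in females, B and plasma cell markers to 30.0 to 228 and 29.0 to 448 CPM, stellate cell markers to 148 to 293 and 220 to 358 CPM, and endothelial markers to 142 to 240 and 179 to 305 CPM. The B and plasma sums had medians of 80.4 CPM in males and 82.2 CPM in females. Erythroid markers summed to 149 to 413 CPM in males and 13.3 to 173 CPM in females. Their part in the difference of Usp18 and the interferon-stimulated genes between the sexes was not tested. The dendritic cell list shares a gene with the 24 interferon-stimulated genes. The mean of these genes per library, centred in the same way, was not correlated with any member after adjustment (r from −0.31 to 0.632, rho from −0.34 to 0.511, smallest adjusted permutation p = 0.288 and 0.352). Among 5 genes of ISG15 conjugation, the process that USP18 reverses, none passed between genotypes. Herc6, the ligase, had 4.52, 5.64 and 6.78 CPM, and Isg15 itself 14.8, 10.0 and 12.7 CPM. Uba7, its activating enzyme, had 5.79, 7.86 and 8.20 CPM and fell in males against females (4.94 against 9.62 CPM, adjusted p = 0.0168).

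Other lists of the pathway passed no test between genotypes. Of 8 interferon regulatory factors, Irf8 had 10.1, 9.44 and 6.68 CPM in Dp16-2xIFNRs, Dp16 and wild-type livers, and Irf2 34.0, 42.2 and 48.1 CPM. Of 11 further receptors that signal through JAKs, Osmr, a chain for oncostatin M, had 2.30, 3.41 and 1.82 CPM, and Il6ra, the interleukin 6 receptor, 10.5, 21.8 and 16.3 CPM. Of these 11, 1 rose in males against females, Ghr (538 against 426 CPM, adjusted p = 0.0482), and 3 fell, Prlr (60.6 against 331 CPM, 3.53e-09), Lepr (3.66 against 25.4 CPM, 0.000307) and Il6ra (10.7 against 21.7 CPM, 0.0421). Of 16 STAT3 acute phase targets, Hamp had 2510, 1670 and 1460 CPM and Bcl3 20.1, 19.0 and 25.2 CPM in the 3 groups. Male over female, Hp (log2 fold change 0.75, adjusted p = 0.0177) and Saa1 (1.61, 0.024) rose while Lbp (−0.83, 0.000265) and Itih4 (−0.61, 0.0106) fell. Of 8 growth hormone targets of STAT5, Igfals had 116, 96.2 and 130 CPM and Cux2 10.9, 16.4 and 15.3 CPM in the 3 groups. Between the sexes, male over female, Serpina3k (log2 fold change 1.63, adjusted p = 2.36e-05) and Onecut1 (1.96, 0.0227) rose and Cux2 fell (−7.46, 9.8e-09). These are 4 of 11, 4 of 16 and 3 of 8 genes of the 3 lists, beside 6.56% of all genes called between the sexes.

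Most marker lists of blood cells were higher in both duplication groups than in wild-type livers, and no marker passed the test. Neutrophil and monocyte markers summed to 9.28 to 23.8 CPM in Dp16-2xIFNRs, 9.38 to 23.3 CPM in Dp16 and 3.80 to 11.6 CPM in wild-type livers, and 9 of 9 in Dp16-2xIFNRs and 8 of 9 in Dp16 were higher than in wild-type. B and plasma cell markers summed to 80.4 to 448, 29.0 to 218 and 30.0 to 114 CPM, with 8 of 8 and 6 of 8 higher, and T and NK cell markers to 7.72 to 11.6, 3.87 to 12.4 and 3.82 to 12.2 CPM, with 7 of 9 and 8 of 9 higher. Kupffer cell markers summed to 219 to 296, 233 to 355 and 223 to 512 CPM, with 0 of 8 and 3 of 8 higher. Of the erythroid markers tested, 6 of 6 were higher in Dp16-2xIFNRs and 5 of 6 in Dp16, with median log2 fold changes of 2.06 and 1.51 against wild-type. Their sums overlapped, at 90.4 to 324 CPM in Dp16-2xIFNRs, 13.3 to 413 CPM in Dp16 and 50.5 to 188 CPM in wild-type livers. The medians of these sums were 218, 139 and 104 CPM. Dendritic cell markers summed to 114 to 167, 87.4 to 181 and 102 to 146 CPM, with 6 of 7 and 6 of 7 higher. Stellate cell and fibroblast markers summed to 186 to 296, 206 to 358 and 148 to 245 CPM, with 7 of 8 and 8 of 8 higher. Other lists were mixed, with 2 of 8 and 5 of 8 endothelial, 3 of 6 and 1 of 6 cholangiocyte, and 5 of 6 and 3 of 6 hepatocyte markers higher. The part of these cells in the levels of Usp18, Socs1, Socs3 and the other members was not tested.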

How the data were processed

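The authors deposited whole-number counts per gene and RPKM per gene for 18 polyadenylated, strand-specific, paired-end libraries. The deposited RPKM were checked to equal the counts scaled to gene length and column total, within 1e-04 percent. Per the submitters' processing notes, HISAT2 2.1.0 and HTSeq 0.6.1 were used with GRCm38, beside SAMtools 1.5, FastQC 0.11.5 and bcl2fastq; no source used here gives their settings, the strand of counting included. Groups came from the sample titles; nothing says that replicates are more than separate samples, so p-values measure the spread between these samples.

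Counts were filtered by filterByExpr, scaled by TMM and tested with the edgeR 4.0.16 quasi-likelihood test in R 4.3.3, in 1 fit of all 18 libraries whose terms were group and sex, adjusted over 15208 genes; the script was tested on simulated data. Log2 CPM used a prior count of 2. Alternatives used DESeq2 1.42.0 and limma 3.58.1, on voom values or on log2(RPKM + 0.1) and log2(RPKM + 1). Coordinates came from GENCODE M21 (98.38% of identifiers matched). Intervals are 95% and unadjusted, and the limit for a count of 0 is 3 counts, for counting error only.

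The members and lists were chosen with earlier results of these data known. Named genes are the 9 members; from each list up to 4 genes called in a comparison, or, where none passed between genotypes, the 2 of smallest p, given as values; the 3 named genes with the highest r for each member; and the receptors beside them. Mean gene length, the first digits of the description number and the correlation with interferon-stimulated genes were added after the data were seen. Some genes of the lists are not reported here.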

Additional observations from a re-analysis of the deposited data

Results flagged for a closer look

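Socs1 in Dp16-2xIFNRs library 1 stood apart from the other libraries of its group on the log2 CPM scale, with 0 CPM from 0 counts, beside 0.423 to 0.865 CPM in the other 5. Of 30 sets of 6 libraries examined in this way, this was the 1 that stood out, and chance gives about 1 in 20. The cause was not tested.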

How the results depend on the processing

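No member was called between genotypes under any alternative run, and no genotype comparison of a member had an adjusted p under 0.108. The counts over all genes were less stable, those with the shared number from limma-voom (11, 19 and 0 without it, in the order below). In Dp16 against wild-type (6) they were 72 by DESeq2, 11 by limma-voom and by limma on log2(RPKM + 0.1) and log2(RPKM + 1), 88 with mean gene length as a term, 16 with a block for the number in the sample description, which 11 libraries share with another, 3 without the sex term, 1 with only the groups compared, 1 without Dp16 libraries 4 and 5, and 0 in males only and in females only. In Dp16-2xIFNRs against wild-type (15) they were 127 by DESeq2, 38 and 27 by limma on RPKM with 0.1 and 1 added, 60 with the length term, 75 with the shared number, 23 with its first digits, 7 without the sex term, 43 with only the groups compared, 64 without Dp16 libraries 4 and 5, and 0 in either sex alone. In Dp16-2xIFNRs against Dp16 (0) they were 7 by DESeq2 and 2 with the shared number. In males against females (998) they were 1536 by DESeq2 and 2199 with the length term, and members called (0) were 1 by DESeq2, 1 by limma on RPKM with 0.1 and 1 with 1 added, and 2 with the length term; 0 of the 6 correlated pairs passed with length removed, Jak1 with Stat2 at −0.124 and Tyk2 with Stat2 at −0.228.

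Leaving out 1 library at a time gave 1 to 9 genes in Dp16 against wild-type, with 1 without Dp16 library 2 or wild-type library 1 or 6, 2 without Dp16 library 6 or wild-type library 2, 4 or 5, and 3 without Dp16 library 5 or Dp16-2xIFNRs library 2. It gave 4 to 48 in Dp16-2xIFNRs against wild-type, with 48 and 24 without Dp16 library 4 or 5, 4 without wild-type library 1, 2 or 5, 5 without wild-type library 4 or Dp16-2xIFNRs library 3, 6 without wild-type library 6 or Dp16-2xIFNRs library 4, 7 without wild-type library 3 or Dp16-2xIFNRs library 1 or 6, and 9 without Dp16-2xIFNRs library 2. Members called in males against females were 0 to 1. The log2 ratio of Ifngr2 to Ifngr1 differed by −0.698 to −0.435 in Dp16-2xIFNRs against Dp16 and −0.438 to −0.189 in Dp16-2xIFNRs against wild-type. Members whose sign depended on 1 library ranged, in Dp16-2xIFNRs against Dp16, from −0.00896 to 0.158 for Irf9, −0.0432 to 0.498 for Socs3 and −0.158 to 0.0188 for Usp18. In Dp16-2xIFNRs against wild-type Socs1 ranged from −0.0931 to 0.367. In Dp16 against wild-type the ranges were −0.0119 to 0.175 for Ifngr1, −0.0389 to 0.223 for Jak1, −0.192 to 0.291 for Socs3 and −0.279 to 0.0404 for Tyk2. In males against females they were −0.0567 to 0.0564 for Irf9, −0.107 to 0.0731 for Jak1, −0.0732 to 0.091 for Jak2 and −0.0632 to 0.153 for Stat2.

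The other changes of sign are log2 fold changes. In Dp16-2xIFNRs against Dp16, males only gave −0.0354 for Ifngr1 and −0.0818 for Irf9, females only 0.158 for Socs1, and limma on RPKM with 0.1 and 1 added −0.0548 and −0.0487 for Irf9. The length term gave −0.0506 for Irf9, 0.233 for Jak1, 0.0293 for Stat2 and 0.189 for Tyk2. In Dp16-2xIFNRs against wild-type, males only gave 0.133 for Jak2 and −0.193 for Socs1, and females only −0.407 for Socs3. Socs1 was also at −0.0143 by limma on log2(RPKM + 0.1), −0.237 by limma-voom, −0.2 with the replicate block, −0.477 with the shared number and −0.116 with the length term, which gave 0.126 for Jak1, 0.0316 for Jak2 and 0.073 for Stat2. In Dp16 against wild-type, males only gave −0.0836 for Jak1 and −0.372 for Stat2, and females only −0.261 for Ifngr1, −0.552 for Socs3 and 0.307 for Tyk2. Socs3 was at −0.0133 without the sex term, −0.0363 with the replicate block and −0.0613 with the length term, which gave −0.107 for Jak1. In males against females, Irf9 was at −0.128 and −0.116 by limma on RPKM with 0.1 and 1 added, −0.067 with the length term, −0.00436 with no filter on low counts and −0.0871 without Dp16 libraries 4 and 5. Jak2 was at −0.116 and −0.0909 by limma on RPKM, −0.0107 with no filter, −0.0681 with an age term, −0.0512 with the first digits, −0.145 with the replicate block and −0.0464 with the shared number. Stat2 was at −0.0942 and −0.0906 by limma on RPKM, −0.0131 with the first digits, −0.0993 with the replicate block and −0.0231 with the shared number, and Jak1 at 0.215 with the length term and 0.111 without Dp16 libraries 4 and 5. The cause of these changes was not tested.

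The replicate numbers did not pair the samples: of 18 same-numbered pairs 6 correlated above 0.1 (r from −0.245 to 0.36), and 3 of 18 libraries correlated best with their own number. With the replicate block, 5, 21, 0 and 1281 genes were called in Dp16 against wild-type, Dp16-2xIFNRs against wild-type, Dp16-2xIFNRs against Dp16 and males against females, and no member call changed. The length term, the first digits and length-removed correlations were chosen after seeing the data. Socs1 has no value with a minimum of 1 CPM in 6 libraries. Socs1 rests on 0 to 75 counts per library.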
